A study of Mus musculus with 4 samples.

Results

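Acaca, Acacb and Prkab2 encode both acetyl-CoA carboxylases of the mouse and a regulatory subunit of AMP-activated protein kinase (AMPK), the kinase that switches these carboxylases off. They were followed here in brown adipocytes that expressed NT-PGC-1α, a short splice form of the transcriptional coactivator PGC-1α, or the empty vector. The 3 genes were taken because the study lists them as higher with NT-PGC-1α on these same arrays, by a fold and a p-value. No adjustment of that p-value is described. Their differences between the groups are thus a description and carry no test. Apart from the arrays, the paper reports Acaca and Acacb as higher by real-time PCR in other cells that expressed NT-PGC-1α. These were brown adipocytes without PGC-1α and cultured white adipocytes. The members are the probes that the study's list pairs with these symbols and every probe that shares an mCG gene identifier with one of them, which gave 5 of the 33012 probes of the array, 3 for Acaca and 1 each for Acacb and Prkab2, or 3 of the 30443 genes that the array distinguishes by its identifiers. Immortalized brown preadipocytes of FVB strain origin were transduced with a lentivirus that carried hemagglutinin-tagged NT-PGC-1α or nothing, and all groups were differentiated alike, for 2 days with insulin, triiodothyronine, isobutylmethylxanthine, dexamethasone and indomethacin and for 5 more days with insulin and triiodothyronine alone. No cAMP-raising agent other than the induction cocktail was described, the cells kept their own Ppargc1a gene, and whether a group came from 1 clone was not stated. RNA was pooled within each group, from 3 samples according to the methods and from 2 according to the deposited design, and the pool of each group was placed on 2 ABI Mouse Genome Survey arrays, named A and B. A group thus holds 1 pool measured on a pair of technical replicate arrays, and the empty vector pool is called the control pool below. Every fold compares 2 pools, with the disagreement of the arrays as its error.

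Acetyl-CoA carboxylase joins bicarbonate to acetyl-CoA through a biotin cofactor and makes malonyl-CoA. The enzyme encoded by Acaca lies in the cytosol, where malonyl-CoA feeds fatty acid synthase, whereas the enzyme encoded by Acacb is held at the outer mitochondrial membrane, where malonyl-CoA blocks carnitine palmitoyltransferase and so the entry of fatty acids into mitochondria. AMPK is a heterotrimer of a catalytic alpha, a scaffolding beta and a nucleotide-sensing gamma subunit. It is active when cellular ATP is low and phosphorylates both carboxylases, which lowers malonyl-CoA. Prkab2 encodes the beta-2 subunit, which holds the trimer together and binds glycogen. Brown fat is known for running fatty acid synthesis and fatty acid oxidation side by side during cold exposure.

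Because each member was higher with NT-PGC-1α at its named probe, the 250 bases before a transcription start of each gene in RefSeq are shown. The genome was GRCm38.p6, used for sequence and names alone, and the matches to 6 short motifs are in capitals. All 3 symbols matched 1 window each.
Acaca (chr11:84195188-84195437, plus strand): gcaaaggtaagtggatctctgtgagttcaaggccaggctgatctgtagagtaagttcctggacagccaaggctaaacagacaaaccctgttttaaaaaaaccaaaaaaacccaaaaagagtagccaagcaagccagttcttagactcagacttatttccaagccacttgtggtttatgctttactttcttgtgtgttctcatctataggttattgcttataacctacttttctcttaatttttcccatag
Acacb (chr5:114165268-114165517, plus strand): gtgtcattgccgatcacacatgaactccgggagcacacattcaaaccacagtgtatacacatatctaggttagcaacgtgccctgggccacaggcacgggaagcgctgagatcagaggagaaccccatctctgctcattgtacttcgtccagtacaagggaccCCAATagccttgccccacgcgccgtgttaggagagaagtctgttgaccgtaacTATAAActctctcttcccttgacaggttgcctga
Prkab2 (chr3:97657962-97658211, plus strand): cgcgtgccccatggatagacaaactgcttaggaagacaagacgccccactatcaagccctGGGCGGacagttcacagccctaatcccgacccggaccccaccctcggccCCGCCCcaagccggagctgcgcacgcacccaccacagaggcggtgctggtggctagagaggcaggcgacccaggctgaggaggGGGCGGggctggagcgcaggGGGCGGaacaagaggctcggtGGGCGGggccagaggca
The motifs searched on both strands were the nuclear receptor half-site AGGTCA, the longer estrogen-related receptor element TCAAGGTCA that contains it, the GC box GGGCGG, the E-box CACGTG, the CCAAT box CCAAT and the TATA box TATAAA. The Prkab2 window held 5 GC boxes, 4 on the gene's strand and 1 on the opposite strand, and none of the other motifs. In the Acacb window there were 1 CCAAT box, from 87 to 83 bases before the start, and 1 TATA box, from 34 to 29 bases before it. None of the 6 motifs was found in the Acaca window. Over 32851 windows of the same length, 32.7% held a GC box, 33.8% a CCAAT box, 12.4% a TATA box, 14% the half-site, 6.02% the E-box and 0.387% the estrogen-related receptor element. G and C made up 69.2% of the bases of the Prkab2 window, 52.4% of the Acacb window and 39.2% of the Acaca window, against a median of 52.4% over all windows. The Prkab2 window ends at the outermost start of the gene, whereas the windows of Acaca and Acacb end at a start inside the span of their genes. The bases before the outermost starts of Acaca and Acacb were not examined here. These matches describe letters in the windows and do not show binding.

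The signal of a probe was a linear chemiluminescent intensity, which was log2 transformed and normalized by quantiles across the 4 arrays. Folds were taken as the mean log2 signal with NT-PGC-1α minus that of the control pool, turned back to a ratio, and the range beside a fold is over the 4 pairings of an NT-PGC-1α with a control array. Median signals before normalization lay between 395 and 448, and log2 signals correlated across probes, which are not independent, with r = 0.991 within each pool and with r from 0.954 to 0.957 between the pools. At the named probe of Ppargc1a, the gene whose short form was expressed, control arrays gave 113.9 and 135.7 and NT-PGC-1α arrays 1078 and 713.9, a fold of 7.06. Probe 747719, which has the same identifier, read 225.6 and 148.6 in the control against 257.9 and 345.2, a fold of 1.63. A probe was counted as higher or lower where both arrays of a pool lay on the same side of both arrays of the other and the fold reached 1.5 or, for the lower of the thresholds the study used, a log2 fold of 0.32. Of all probes, 16.9% were higher and 17.6% lower by 1.5-fold, and 26.2% were higher and 26% lower by the lower threshold. Among the 25% of probes with the brightest mean signal, where Acacb and Acaca probe 438015 lie, 3.7% were higher by 1.5-fold and 15.5% by the lower threshold. Among the next 25%, which hold Acaca probe 690906 and Prkab2, these shares were 22.1% and 32%. Of the 3 named member probes, 2 were higher by 1.5-fold and 3 by the lower threshold, and since this contrast chose them nothing is read from these counts. As in any bulk RNA, more RNA per cell and more cells that express a gene cannot be told apart.

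**Figure D1:**
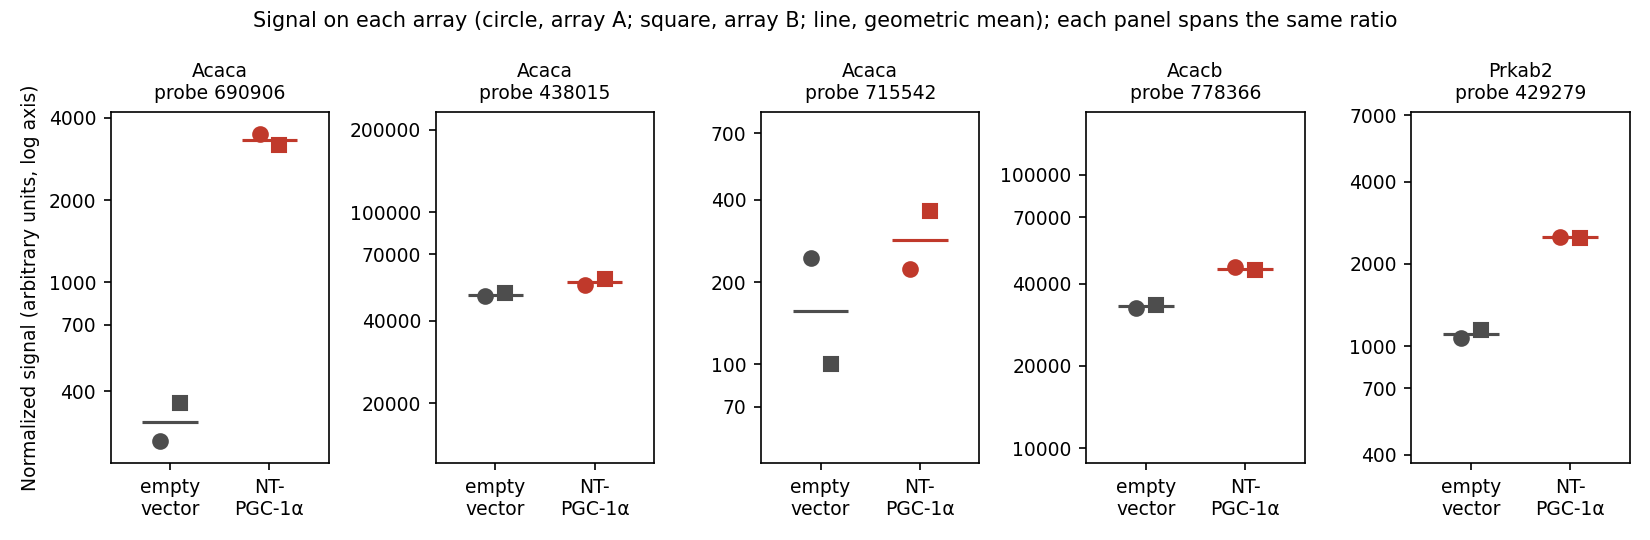
Normalized signal (arbitrary units, log axis) of the 5 probes of Acaca, Acacb and Prkab2 on the arrays of the control pool (grey) and the NT-PGC-1α pool (red), with circles for array A, squares for array B and lines for the geometric mean of a pool. All panels span the same ratio, and the pools are farthest apart at Acaca probe 690906, at 10.8-fold, and overlap after quantile normalization at Acaca probe 715542.

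Acaca had the highest fold of the members, but at 1 of its 3 probes. The named probe, 690906, gave normalized signals of 263.5 on control array A and 362.2 on control array B, against 3489.8 and 3169 with NT-PGC-1α. Both NT-PGC-1α arrays lay far above both control arrays, and the arrays of a pool differed by 1.37-fold for the control and by 1.10-fold for NT-PGC-1α. The fold was 10.8, with a range of 8.75 to 13.2, and ranked 32 from the top among all 33012 probes. With empty vector this probe was brighter than 42.9% of all probes, and with NT-PGC-1α brighter than 75.3%, so the lower side of the fold rests on a signal below the array median. Comparing arrays of the same letter gave 13.2-fold for A and 8.75-fold for B, the ends of that range. Before any normalization the signals were 259.8 and 340.6 against 3406 and 2718, a fold of 10.2.

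The other Acaca probes did not show a difference of this size. Probe 438015 gave 49297 and 50603 in the control pool against 54126 and 57127 in the NT-PGC-1α pool, a fold of 1.11 with a range of 1.07 to 1.16. Its arrays did not overlap between the pools after quantile normalization, as was the case, in the higher direction, for 36.3% of all probes. Before normalization its signals were 55649 and 49618 in the control against 54919 and 51277, so that the groups overlapped and the fold was 1.01. Median centring of the arrays gave 1.02-fold, again with overlap. Probe 715542 was dim, at 245.0 and 100.7 in the control against 224.1 and 363.9 in the NT-PGC-1α pool. Control array A thus lay above NT-PGC-1α array A, the control arrays differed by 2.43-fold, and the fold of 1.82 ranged from 0.915 to 3.61. This overlap depended on the scaling. Before normalization probe 715542 read 239.4 and 95.0 in the control against 242.3 and 348.4, a fold of 1.93 without overlap and with a range of 1.01 to 3.67, and it was 1.95-fold and 2.31-fold higher without overlap under median and 75th percentile centring. With cyclic loess the groups overlapped again, at 1.75-fold. With empty vector, probe 438015 was brighter than 95.0% of the probes on the arrays and probe 715542 brighter than 15.0%.

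The 3 probes are tied together by the identifier mCG141310, which probes 438015 and 715542 carry alone. Probe 690906 carries it with a further identifier, mCG134701.1, that stands at 1 probe of the array. The part of the transcript that each probe recognises was not analysed here, nor was the question of whether the 3 probes report the same transcripts. Among the Acaca probes the highest and lowest log2 folds lay 3.27 apart. In the 207 sets of 3 probes that share identifiers on this array, the median of this spread was 0.82 on the log2 scale and it was at most 2.18 in 90% of the sets. Probe 690906 was chosen for its high fold on these arrays, so the place of Acaca among sets that were not chosen this way is a description alone. In 62.3% of the sets the probes differed in the sign of the log2 fold, which was not the case for Acaca, where all 3 were positive. Nothing is read from this shared sign. Probe 438015 had a fold of 1.01 with overlap before normalization, and the arrays of probe 715542 overlapped after quantile normalization. Averaging the log2 signals of the Acaca probes gave a fold of 2.79.

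**Figure D2:**
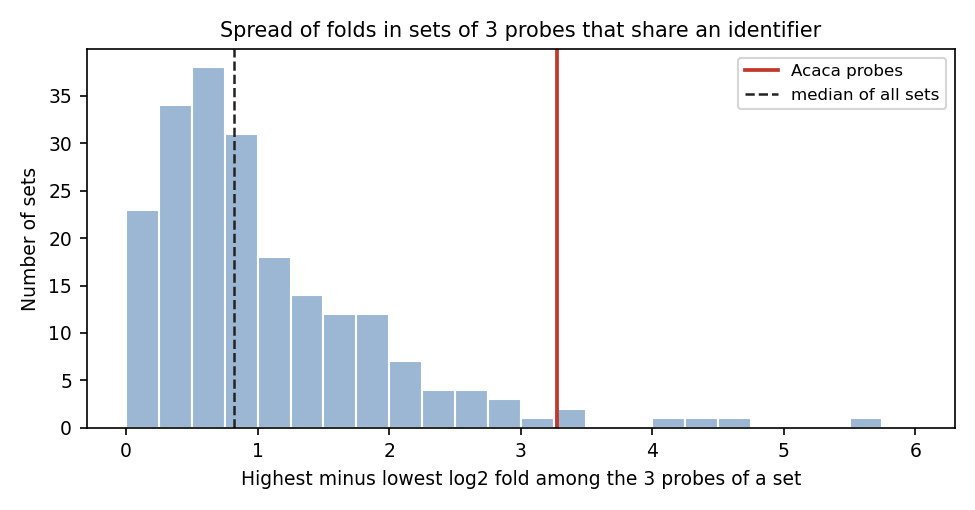
Number of sets of 3 probes that share an identifier (vertical axis, 207 sets in all) by the highest minus the lowest log2 fold in the set (horizontal axis). The Acaca probes (red line, 3.27) lie far to the right of the median of the sets (dashed line, 0.82).

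Acacb, the mitochondrial-membrane carboxylase, differed less between the pools and was measured with little array error. Its probe, 778366, read 32553 and 33462 in the control pool against 46127 and 44681 in the NT-PGC-1α pool after normalization. The groups did not overlap, and the arrays of each pool differed by 1.03-fold. The fold was 1.38, with a range of 1.34 to 1.42, and within array letters it was 1.42 for A and 1.34 for B. This probe was brighter than 93.3% of the probes with empty vector and than 94.7% with NT-PGC-1α, and 22.3% of all probes had a higher fold. The fold depended on the scaling of the arrays. Before normalization the signals were 36456 and 32935 in the control against 46441 and 39861, and the fold of 1.24 was just below the study's lower threshold, with a range of 1.09 to 1.41. It was 1.26 with median centring, 1.35 with cyclic loess and 1.49 with centring on the 75th percentile.

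Prkab2, the AMPK beta-2 subunit, was between these carboxylase probes in fold. Its probe, 429279, read 1070.3 and 1148 in the control pool against 2514 and 2493 in the NT-PGC-1α pool after normalization. The NT-PGC-1α arrays differed by 1.01-fold and both lay above both control arrays, which differed by 1.07-fold. The fold was 2.26, with a range of 2.17 to 2.35, and 6.18% of all probes had a higher fold. The probe was brighter than 64.5% of the probes with empty vector and than 72.7% with NT-PGC-1α. Before normalization its signals were 1247 and 1167 against 2449 and 2144, a fold of 1.90 with a range of 1.72 to 2.10. No other probe shares its identifier, so the fold has no check within the array, and the same holds for Acacb.

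**Figure D3:**
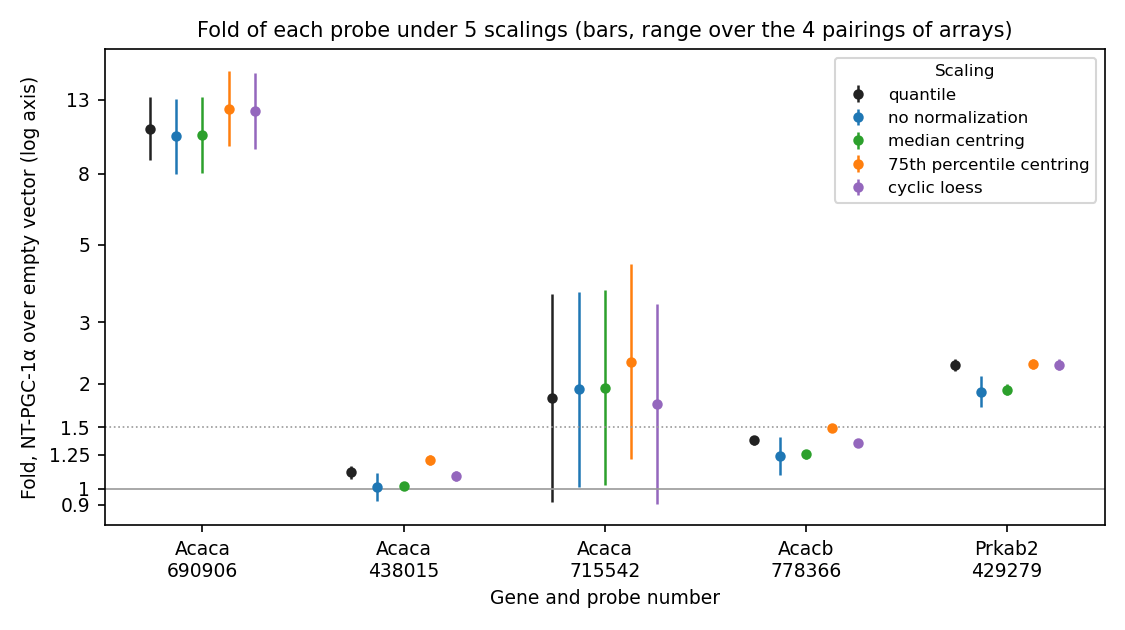
Fold of NT-PGC-1α over empty vector (log axis) for the 5 probes under 5 scalings of the arrays, with bars for the range over the 4 pairings of arrays; lines mark no difference and 1.5-fold. Acaca probe 690906 stays between 10.2-fold and 12.3-fold and Prkab2 between 1.90-fold and 2.28-fold, while Acaca probe 438015 lies between 1.01-fold and 1.21-fold and Acacb between 1.24-fold and 1.49-fold. Acaca probe 715542 lies between 1.75-fold and 2.31-fold with the widest bars.

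Centring on the 75th percentile moved the median log2 fold of all probes from 0.01 to 0.22, and 71.1% of the probes past 1.5-fold without overlap were then on the higher side, against 49% with quantile normalization. Taken relative to the median probe, the folds before normalization and under both kinds of centring were the same by construction, since centring shifts all probes of an array alike. They were 10.5 for Acaca probe 690906, 1.04 for Acaca probe 438015, 1.28 for Acacb and 1.96 for Prkab2. The corresponding values after quantile normalization were 10.7, 1.11, 1.37 and 2.24. The order of these 4 folds was the same under all 5 scalings, but centring cannot change the order found before normalization. Acaca probe 715542 was not part of this order. It lay below Prkab2 after quantile normalization (1.82 against 2.26) and above it before normalization (1.93 against 1.90). Among the 4 probes, the ranges over the pairings did not overlap between neighbours, except before normalization, where Acaca probe 438015 reached 1.11 and Acacb began at 1.09. That overlap arose from pairings of unlike letters, since arrays A were brighter than arrays B in both pools before normalization (medians of 448 and 398 in the control, 442 and 395 with NT-PGC-1α). Within letters A and B, the folds before normalization were 0.987 and 1.03 for Acaca probe 438015 and 1.27 and 1.21 for Acacb.

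Around the members, genes of AMPK signalling were looked up by symbol. Nearly all symbols at hand come from the study's list of changed genes, which was chosen on these arrays, so every named gene was likely to differ and the counts describe the lists alone. The study's list takes higher genes past the lower threshold but lower genes only past 1.5-fold, so it leans to the higher side. Its probes had a median log2 fold of 0.39, against 0.01 over all probes. Of 19 symbols of AMPK subunits, upstream kinases and phosphatases, 4 had a named probe. By the lower threshold 3 of these were higher and 1 was lower (26.2% and 26% of all probes), with a median log2 fold of 0.53. Prkab2 was the AMPK subunit among them. The others encode members of the metal-dependent protein phosphatase family, part of which can dephosphorylate AMPK. Ppm1m read 8482 and 8734 in the control against 11466 and 12114, a fold of 1.37. Ppm1a had 8068 and 7367 against 4374 and 4738, and was 1.69-fold lower. Ppm1l gave opposite answers at its probes. The named probe was 1.53-fold higher, from 1937 and 2009 to 2967 and 3055, and a second probe with the same identifier was 4.05-fold lower, from 663.8 and 766.3 to 181.7 and 170.5.

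Of 31 symbols of AMPK substrates and downstream genes, 10 had a named probe. By the same threshold 8 were higher and 2 lower (26.2% and 26% of all probes). Their median log2 fold was 0.81, against 0.39 over the probes named by the study's list. The higher genes took in Ppargc1a, which was itself expressed, and Acaca and Acacb, which were chosen as higher, so nothing is read from these counts. Besides the carboxylases, the higher genes included Cpt1b, the muscle-type carnitine palmitoyltransferase that malonyl-CoA inhibits. Its control signals of 376.3 and 337.4 against 1036 and 1162 gave a fold of 3.08, with a range of 2.75 to 3.44. The phosphofructokinase genes Pfkp and Pfkm were 1.95-fold and 1.58-fold higher, and Smarcc1, a chromatin remodelling subunit, was 8.23-fold higher from signals of 168.1 and 148.4. Slc2a4, the insulin-sensitive glucose transporter, was 1.27-fold higher, from 45945 and 46034 to 57323 and 59870.2. The lower genes belong to the mTOR branch. Rps6kb1, the ribosomal protein S6 kinase, read 536.4 and 473.1 in the control against 113.8 and 118.9 and was 4.33-fold lower. Tsc1, part of the complex that restrains mTOR, had 459.9 and 499.1 against 215.5 and 184.8 and was 2.40-fold lower.

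The study's pathway results name AMPK signalling on both sides, with 7 molecules among its upregulated and 8 among its downregulated genes, so that the pathway as annotated there holds genes of both directions. All 15 had a named probe, and none overlapped between the groups, where 36.3% of all probes were higher and 35.4% lower without overlap at any fold. The median log2 fold was 1.18 for the first set, which holds Acaca and Prkab2, and -1.71 for the second, and these directions follow from how the sets were chosen. In the second set, Mapk13, a p38 kinase, was 3.55-fold lower, from 2733 and 2791 to 846.6 and 713.0.

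Named probes for the rest of fatty acid synthesis were few. Of 31 symbols, which included the steps before and after the carboxylase, 2 had a named probe, and both were lower with NT-PGC-1α by 1.5-fold, as were 17.6% of all probes. Both were named through the study's list of changed genes, so nothing is read from this count about the pathway. Scd4, a stearoyl-CoA desaturase, read 19517 and 18881 in the control against 11137 and 10959 and was 1.74-fold lower. Elovl4, which elongates very long chain fatty acids, had 981.1 and 860.1 against 364.8 and 390.4 and was 2.43-fold lower. Acsl4, which activates fatty acids to their CoA esters, was the 1 of 7 symbols of that group with a named probe and was 1.68-fold lower, while a second probe with its identifier was 1.21-fold lower. Of 9 symbols of biotin-dependent carboxylases and biotin handling, 1 had a named probe. This was Pcca, the biotin-carrying subunit of mitochondrial propionyl-CoA carboxylase, at 67009 and 65317 in the control against 87358 and 98456, a fold of 1.40 with a range of 1.30 to 1.51. No probe was named for the enzyme that attaches biotin, for the catalytic or gamma subunits of AMPK, or for fatty acid synthase, and these were not analysed here.

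**Figure D4:**
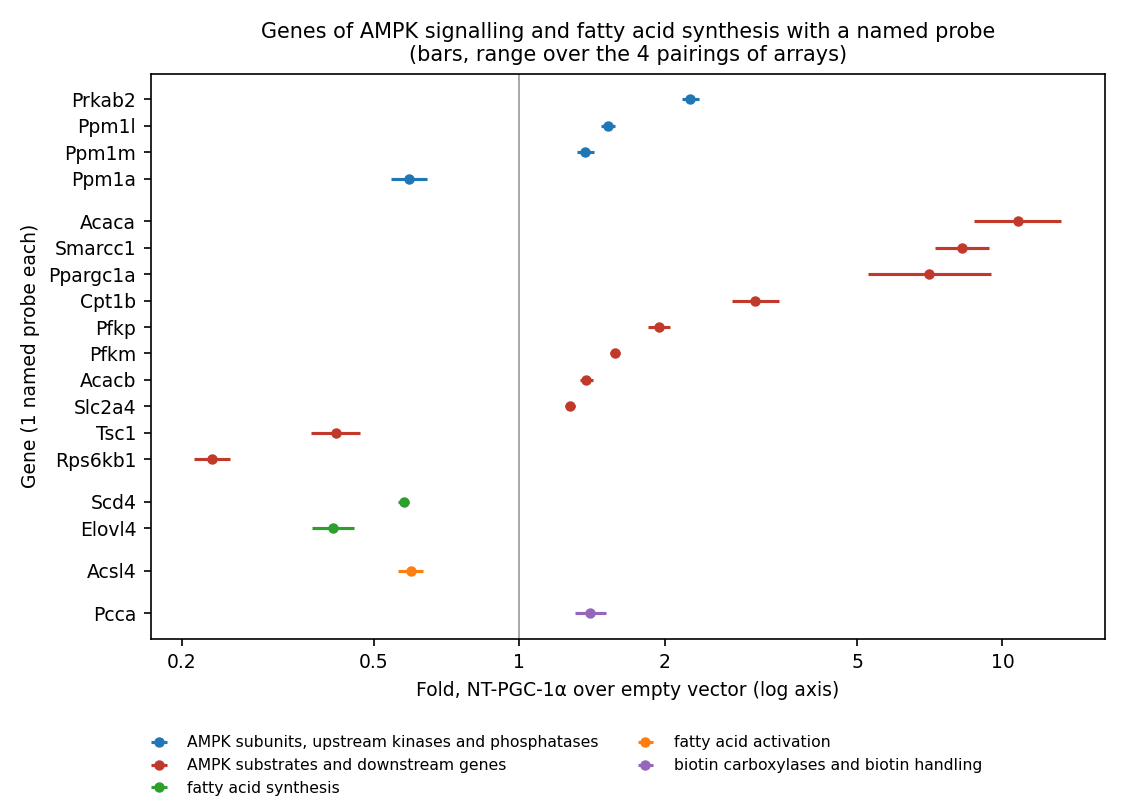
Fold of NT-PGC-1α over empty vector (log axis) for the 18 named probes of 5 gene lists, coloured by list, with bars for the range over the 4 pairings of arrays. Acaca is the highest at 10.8-fold and Rps6kb1 the lowest at 4.33-fold lower. Scd4, Elovl4 and Acsl4, the named probes of the lists of fatty acid synthesis and activation, lie below 1. The carboxylases Acaca and Acacb are drawn with the AMPK substrates and lie above 1.

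The named probes nearest to each member over the 4 arrays, by Euclidean distance of the normalized log2 signals, took in level and difference together. For Acaca probe 690906 they were those of Parp6 (distance 0.59), Ebi3 (1.11) and Rab27b (1.22), with folds of 8.14, 6.03 and 9.16. For Acacb they were Phlda3 (0.13), Ptcd2 (0.13) and Plin3 (0.17), and for Prkab2 they were Rpl18 (0.12), Cideb (0.20) and Nin (0.24). The distances were thus widest for Acaca. With 4 arrays of 2 pools, such a likeness holds little beyond the level and the fold, and most of the 1635 named probes were chosen for a difference on these arrays.

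The labelled cell type could not be checked here, since every marker with a named probe came from the study's list of changed genes. The folds below compare the groups and do not identify the cells. By the lower threshold, 26.2% of all probes were higher and 26% lower. Of 9 brown adipocyte symbols, Ppara and Ppargc1a had a named probe, and of 9 adipocyte symbols Slc2a4 did (1.27-fold higher), whereas Ucp1, Cidea, Adipoq and Fabp4 had none. Ppara, a nuclear receptor of fatty acid oxidation, read 5616 and 5908 in the control against 13902 and 13488, 2.38-fold higher, and Ppargc1a is the gene that was expressed. Of the markers of other cell types, Cd68 of macrophages (1 of 5 symbols) was 2.43-fold lower with NT-PGC-1α, Cdh5 of endothelium (1 of 2) was 2.20-fold higher and Myog of skeletal muscle (1 of 4) was 2.78-fold lower, and neither of 2 preadipocyte symbols had a named probe. The signals of these 3 probes lay between 191.0 and 980.9, and their part in the differences of Acaca, Acacb and Prkab2 was not tested.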

How the data were processed

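The values were probe intensities that the authors deposited on a linear scale, without normalization across arrays, for 33012 probes on 4 single-label ABI arrays. They were read, according to the methods, on an Applied Biosystems chemiluminescent analyzer and processed with ABarray and R 2.2.1. The paper's quantile normalization and its signal to noise and flag filters are not part of these values, and whether background was subtracted was not stated. No probe can therefore be called detected or not, and a fold with a dim pool on either side is the less certain. The number of arrays limits the precision.

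Log2 signals were normalized by quantiles in R 4.3.3 with limma 3.58.1, with no offset and no probe removed. Arrays A and B share 1 RNA pool, so each group is 1 replicate and no p-value is given for a member. Other steps used Python 3.11.15, numpy 2.4.6, pandas 2.3.3, scipy 1.17.1 and matplotlib 3.10.9. Symbols came from the study's list by probe number (1342 probes) or from a RefSeq accession as identifier (293 probes), which left 31377 probes without one. Probe sequences and protein sequences were not used here. The members and lists were chosen with earlier results of these data known. Named genes are the member probes, genes of 5 lists with a named probe, and the 3 named probes nearest to each member; genes of the study's own AMPK list were added after their values were seen, and 1 of them is not reported here. The calculations were tested on simulated data. Alternatives were other scalings, a normexp correction (offset 50), 111.9 added to every signal, which is their 5th percentile, a filter on dim probes, the omission of single arrays, a block for the array letter, averages over an identifier's probes, and the methods' t-test.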

Additional observations from a re-analysis of the deposited data

How the results depend on the processing

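The direction of each of the 5 member probes' mean log2 fold was the same under all alternatives tried, and with 1 pool per group no setting can show how cultures vary. For Acaca probe 690906, the fold was 8.15 with 111.9 (the 5th percentile of signals) added to every signal, 2.79 as the mean over the probes that share its identifier, and 8.85 to 12.3 with any 1 array left out. For Acacb, it was 1.24 without normalization, 1.26 with median centring and 1.49 with centring on the 75th percentile. For Prkab2, it was 1.90 without normalization, 1.92 with median centring and 2.14 with 111.9 added. Leaving out an array moved the fold of Acaca probe 715542 between 1.16, without control array B, and 2.74, without control array A, and the filter on dim probes removed this probe. The spread of the log2 folds of the Acaca probes was 0.71 where an identical identifier entry was required, which leaves out probe 690906 (41.3% of the sets of 2 probes were then at least as wide), and the Acaca set has no value where all probes of a set must lie above the median signal.

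The number of probes at least 1.5-fold higher and lower was 5565 and 5802 with quantile normalization, 9227 and 3759 with centring on the 75th percentile, and 2887 and 3054 with the filter on dim probes. With the methods' t-test in place of no overlap, it was 3094 and 3428 unadjusted, and 59 and 92 after Benjamini-Hochberg adjustment, counts that set 2 pools against array error. With the array letter as a replicate block, 3934 and 4303 probes passed in both letters, and the members' mean folds were unchanged by construction (10.8 for Acaca probe 690906). Deviations of arrays with the same letter correlated with r = -0.02 across probes, after quantile normalization, which removes the shift by which arrays A were brighter than arrays B in both pools, so whether the letters mark a shared run was not settled.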
